A study of Mus musculus with 2 samples.

Results

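Genes of lung and airway epithelium were followed in total RNA of mouse heart, hybridised with Cy3 to 1-colour Agilent arrays. The 39 genes code for surfactant proteins, airway secretory proteins, epithelial junctions, ion channels, keratins and the transcription factors of these cells. Members were found through the RefSeq accession of each array probe, and all 39 of them were named by a probe, out of 21368 named genes. They were picked with their values in these samples already known, so their levels are a description and no test is attached to them.

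The study compared a control heart of C57BL6 strain background with a heart of the transgenic strain B6.Cg-Tg with the transgene CAG-WRN*K577M, line 5025Wcl/Mmmh, on the same background, to look for signalling that goes with cardiac remodelling. The line carries WRN-K577M, a substituted form of the WRN DNA helicase of Werner syndrome, under the CAG promoter, which is active in most cell types and not in the heart alone. Each group had 1 sample on 1 array. Age, sex, how many hearts gave a sample, and the meaning of the letters ND in both sample titles are not given in the sources used here. Without replicates no p-value can be given, and nothing separates genotype from other differences between these samples.

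The air sacs of the lung are lined by flat type 1 cells, through which gas is exchanged, and cuboidal type 2 cells, which make surfactant, the mix of lipid and protein that keeps the air sacs from collapsing. The airways are lined by club, goblet and ciliated cells, which secrete protective proteins and move mucus. Heart muscle is not an epithelium. The mesothelium on the surface of the heart, the epicardium, does share keratins and some junction proteins with epithelia.

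A level is the log2 processed signal of a probe relative to the 75th percentile of its array, and log2 ratios subtract the control level from that of the WRN-K577M heart. Probes at the 75th percentile had a signal of 256 on the control and 210 on the WRN-K577M array, and 55.2% and 52.9% of the 55681 probes were well above background by the scanner software's flag. A gene well above background on both arrays is called measured, and its brightest such probe is given. A gene above background on 1 array has a bound instead: the brighter level minus a limit for the dimmer array, taken as the probe's level there or, where larger, the dimmest level called above background there, which was -4.42 on the WRN-K577M and -4.73 on the control array. All 12 heart muscle genes examined, among them Myh6, Tnnt2 and Ryr2, were measured, and all lay within 2-fold.

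Of the 39 lung and airway genes, 31 were well above background in the control heart and 17 in the WRN-K577M heart. Over all named genes, 69.0% of them passed that flag in the control, against 66.5% with WRN-K577M. The 17 measured members comprised 8 with at least 2-fold lower levels in the WRN-K577M heart, against 3.46% of all measured genes, and 0 that were at least 2-fold higher, against 1.94% of all measured genes. The other 14 detected members were above background on the control array alone, against 4.95% of all genes detected on either array, and 8 of these had a bound of at least 2-fold, against 138 of the 740 genes of that kind (18.6%). Bounds included, 16 members were at least 2-fold lower, against 4.16% of the genes detected on either array. None was above background in the WRN-K577M heart alone, against 1.4% of the genes detected on either array, and 8 were above background in neither, against 30% of all named genes. The members were chosen on this contrast, so nothing is read from these shares. In a bulk sample, fewer cells of a type and less RNA per cell cannot be told apart.

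The dimmest member called above background in the control was Nkx2-1, with a level of -4.44, and the brightest not so called was Cldn18, with -4.90. Around the 2-fold threshold, Grhl2 lay inside with a log2 ratio of -1.53 and Bpifa1 outside with -0.84.

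The 4 genes of surfactant proteins were above background in the control heart and not in the WRN-K577M heart. Sftpc codes for the hydrophobic surfactant protein C, made by type 2 cells. Its processed signal was 15986 in the control heart and 2.15 in the WRN-K577M heart, where it was not well above background, so it was at least 1336-fold lower. Sftpd, a collectin that binds microbes, had the level 2.60 in the control heart and was at least 130-fold lower. Sftpb, the second hydrophobic surfactant protein, had the level 2.40 in the control heart and was at least 113-fold lower. Sftpa1, the other surfactant collectin, had the level 2.14 in the control heart and was at least 94.3-fold lower. All these 4 genes lay above the 75th percentile of probes in the control heart and were not well above background in the other. With normexp, an alternative background correction described below, the smallest of these bounds was 14.6-fold, for Sftpa1.

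Genes that handle surfactant differed from one to the next. Napsa, the aspartic protease that processes surfactant proteins, had the level -1.54 in the control heart and was at least 6.21-fold lower. Slc34a2, the phosphate transporter of type 2 cells, was near the detection limit in the control, with a level of -3.63, and its bound was 1.73-fold lower. Abca3, which loads lipid into lamellar bodies, was well above background in both hearts, with levels of 2.31 (control) and 2.99 (WRN-K577M), a log2 ratio of 0.68 with a software error of 0.20. Lamp3, a lysosomal membrane protein also found on lamellar bodies and dendritic cells, had levels of 3.84 and 3.37, a log2 ratio of -0.47. Both genes stayed within 2-fold, on arrays where the surfactant proteins differed by at least 94.3-fold, or at least 14.6-fold with normexp.

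Among the airway secretory genes, Scgb1a1, the main secretoglobin of club cells, had a control level of 5.76 and a WRN-K577M level of -2.02, where it was still above background. The log2 ratio was -7.78, or 221-fold lower. Wfdc2, a secreted protein with a protease inhibitor fold, had levels of 0.97 and -3.33, 19.6-fold lower. Cbr2, a carbonyl reductase abundant in lung and also expressed in other tissues, had levels of 5.17 and 3.29, 3.67-fold lower.

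Of the other 4 secretory genes, 2 were measured, both within 2-fold. Scgb3a1, a secretoglobin of larger airways, had levels of -1.03 (control) and -0.85 (WRN-K577M). Bpifa1, an airway surface protein, had levels of -2.70 and -3.55, 1.79-fold lower. Scgb3a2, a further secretoglobin, and Reg3g, an antibacterial lectin, were not well above background in either heart. Both Scgb1a1 and Scgb3a1 were thus measured in each heart, the first far lower with WRN-K577M and the other within 2-fold, with a log2 ratio of 0.18.

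**Figure D1:**
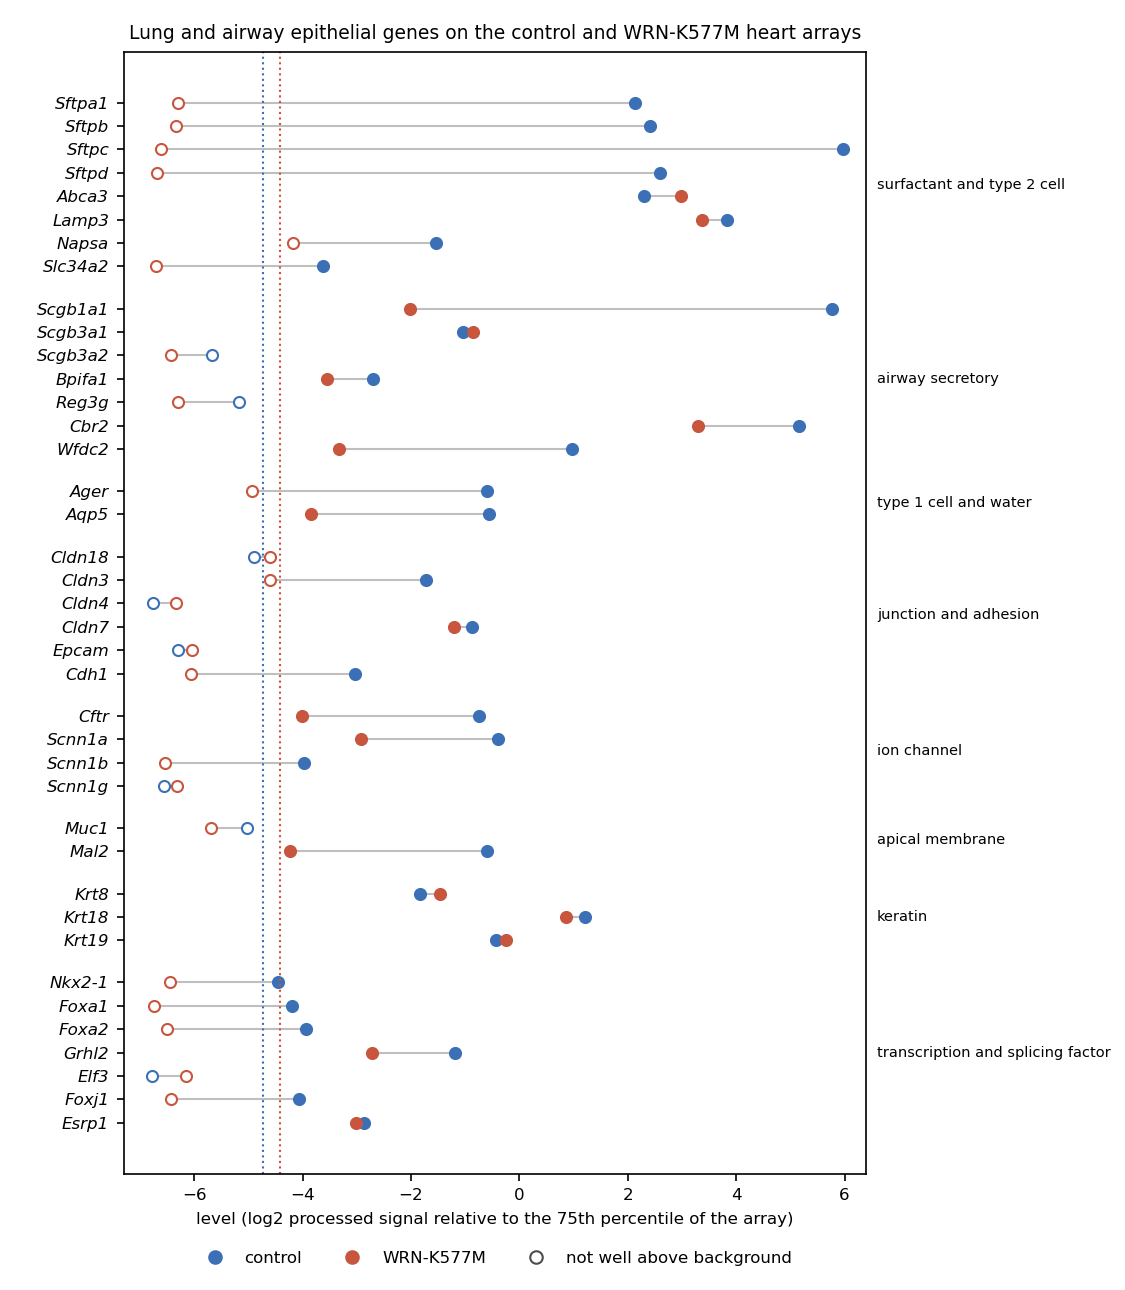
Levels of the 39 lung and airway genes, grouped by role, on the control (blue) and WRN-K577M (red) array, as log2 processed signal relative to the 75th percentile of each array. Open circles are probes not well above background and dotted lines the dimmest level called above background on each array. The 4 surfactant proteins run from at least 2.14 in the control to below the line in the WRN-K577M heart, while the keratins, Abca3 and Lamp3 stay close together.

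Promoters of 4 genes are shown to set members that were far lower beside members within 2-fold. The windows are 250 bases before to 50 after the transcription start, from RefSeq on GRCm38.p6, in the gene's direction, and 27 of the 39 members had such a window. Capitals mark the words CTCAAG, the core recognised by the lung and thyroid factor NKX2-1, and TGTTTAC, with A or G allowed at positions 2 and 6, the word bound by FOXA factors, each read on either strand. Sftpa1 and Sftpb were at least 94.3-fold and 113-fold lower (14.6-fold and 16.9-fold with normexp), and Scgb3a1 and Lamp3 were within 2-fold. The windows are chr14:41131538-41131837 on the plus strand for Sftpa1, chr6:72304360-72304659 on the plus strand for Sftpb, chr11:49663345-49663644 on the plus strand for Scgb3a1 and chr16:19706316-19706615 on the minus strand for Lamp3.
Sftpa1: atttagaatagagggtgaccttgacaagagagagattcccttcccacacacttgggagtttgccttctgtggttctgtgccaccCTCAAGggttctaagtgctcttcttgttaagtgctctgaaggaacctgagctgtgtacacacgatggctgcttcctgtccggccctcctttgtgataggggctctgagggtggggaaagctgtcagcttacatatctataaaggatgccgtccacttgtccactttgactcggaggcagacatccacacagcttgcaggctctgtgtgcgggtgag
Sftpb: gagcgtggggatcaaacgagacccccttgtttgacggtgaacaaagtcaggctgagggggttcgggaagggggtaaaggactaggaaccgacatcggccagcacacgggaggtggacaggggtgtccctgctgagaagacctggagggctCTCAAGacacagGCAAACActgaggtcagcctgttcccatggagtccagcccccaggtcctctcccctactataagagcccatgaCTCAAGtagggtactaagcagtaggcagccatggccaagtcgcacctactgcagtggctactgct
Scgb3a1: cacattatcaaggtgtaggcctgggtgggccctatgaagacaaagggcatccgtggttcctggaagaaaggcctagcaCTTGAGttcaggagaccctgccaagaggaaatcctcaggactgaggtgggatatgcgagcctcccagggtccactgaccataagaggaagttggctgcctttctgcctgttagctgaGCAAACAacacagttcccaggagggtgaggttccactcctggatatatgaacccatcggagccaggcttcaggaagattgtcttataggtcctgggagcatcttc
Lamp3: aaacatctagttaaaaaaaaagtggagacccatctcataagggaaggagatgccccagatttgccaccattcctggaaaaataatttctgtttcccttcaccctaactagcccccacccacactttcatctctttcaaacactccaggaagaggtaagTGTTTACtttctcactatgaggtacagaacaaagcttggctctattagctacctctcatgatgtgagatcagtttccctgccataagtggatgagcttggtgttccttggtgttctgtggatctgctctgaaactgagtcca

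Sftpb held 2 matches of the NKX2-1 word, which began 100 and 15 bases before the start, and 1 FOXA word at 88 bases. Sftpa1 held 1 NKX2-1 word at 166 bases before the start and no FOXA word. Scgb3a1 held 1 of each, at 172 and 55 bases, and Lamp3 had 1 FOXA word at 92 bases. Over all members with a window, 7 of 32 windows held the NKX2-1 word and 7 of 32 a FOXA word, both 21.9%, against 15.9% and 13.5% of all 32851 windows in the table. The GRHL word AACCNGTT, also read on both strands, was in 1 member window, that of Muc1, and in 2.09% of all windows. No matches of different motifs overlapped in the member windows. The NKX2-1 and FOXA words occurred in promoters of members that were far lower and of members within 2-fold, and a match is a description of letters, not a binding site.

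Members with roles in type 1 cells and in water and chloride transport were lower. Ager, the receptor for advanced glycation end products and a marker of type 1 cells, had a level of -0.59 in the control, was not above background in the WRN-K577M heart and was at least 14.2-fold lower. Aqp5, the apical water channel, had levels of -0.57 and -3.84, 9.65-fold lower. Cftr, the chloride channel of cystic fibrosis, had levels of -0.74 and -4.01, also 9.65-fold lower.

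The epithelial sodium channel has 3 subunits on the array. Scnn1a, the pore-forming alpha subunit, had levels of -0.39 (control) and -2.92 (WRN-K577M), 5.80-fold lower. Scnn1b, the beta subunit, was above background in the control alone, with a level of -3.98 and a bound of 1.36-fold lower. Scnn1g, the gamma subunit, was above background in neither. Mal2, a protein of apical membrane transport, had levels of -0.60 and -4.23, 12.3-fold lower, and Muc1, a mucin of apical membranes, was above background in neither heart.

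Junction and adhesion genes were mixed and mostly dim. Cldn3, a tight junction claudin, had the level -1.72 in the control heart and was at least 6.48-fold lower. Cdh1, E-cadherin, had the level -3.03 in the control heart and was at least 2.62-fold lower. Cldn7, another claudin, was measured in both hearts, with levels of -0.88 and -1.21, a log2 ratio of -0.33. Cldn18, the claudin of air sacs and stomach, Cldn4 and Epcam, an adhesion protein of nearly all simple epithelia, were above background in neither heart.

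The keratins of simple epithelia were near equal. Krt8 had levels of -1.82 (control) and -1.47 (WRN-K577M), Krt18, its partner in filaments, 1.22 and 0.86, and Krt19 levels of -0.44 and -0.24. Their log2 ratios were 0.36, -0.35 and 0.20, each within 2-fold. Markers of mesothelium and epicardium, which also make these keratins, were measured in both hearts for 11 of the 12 named, with 0 at least 2-fold different. Msln, mesothelin, had levels of 1.64 and 2.32 and Upk3b, a uroplakin of mesothelium, levels of -1.40 and -0.99. Of the 11 mesothelium and epicardium markers, 7 were higher and 4 lower with WRN-K577M. The widest ratios were those of Wt1 (1.70-fold lower), Tbx18 (1.65-fold higher) and Rspo1 (1.64-fold lower). How much of the keratin signal came from those cells was not tested.

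Transcription factors of lung epithelium were at the edge of detection. Nkx2-1, which specifies lung and thyroid, had a level of -4.44 in the control, below the dimmest level called above background on the other array, so no fold can be given. Foxa1 and Foxa2, forkhead factors of endoderm, had control levels of -4.20 and -3.94 and bounds of 1.17-fold and 1.40-fold lower. Foxj1, the switch for motile cilia, had a control level of -4.07 and a bound of 1.27-fold lower. None of these 4 was above background in the WRN-K577M heart.

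Grhl2, a grainyhead factor that keeps epithelial junctions, was measured with levels of -1.19 and -2.72, 2.88-fold lower. Esrp1, which directs epithelial splicing, had levels of -2.86 and -3.02, a log2 ratio of -0.16. Elf3, an epithelial ETS factor, was above background in neither heart. Of the 7 factors and splicing regulators, 2 were therefore measured in both hearts.

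The alternative normexp setting, which starts from the median spot signal, models background and adds a constant of 50, gave other sizes for many differences. With it, 7 rather than 8 measured members were at least 2-fold lower, against 1.4% of all measured genes. Scgb1a1 was then 105-fold lower, Wfdc2 5.75-fold, Mal2 2.76-fold, Aqp5 2.74-fold, Scnn1a 2.27-fold and Cftr 2.24-fold. Grhl2 was 1.58-fold lower and no longer past 2-fold, Bpifa1 had a log2 ratio of -0.072 and Esrp1 turned to 0.13. Cbr2 kept a log2 ratio of -1.86.

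Bounds shrank in the same way under normexp. Sftpc was at least 212-fold lower, Sftpd 23.4-fold, Sftpb 16.9-fold, Sftpa1 14.6-fold and Ager 2.75-fold. The bounds of Cldn3, Napsa and Cdh1 became 1.67-fold, 1.56-fold and 1.22-fold, so that 12 rather than 16 members were at least 2-fold lower with bounds included. The share over all genes, 4.16% in the main setting, is not available for normexp, so nothing is read from that count. With a filter that keeps probes at 4 times the detection limit on both arrays, 9 members remained measured and 2 of them, Scgb1a1 and Cbr2, were at least 2-fold lower, against 2.55% of all measured genes.

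**Figure D2:**
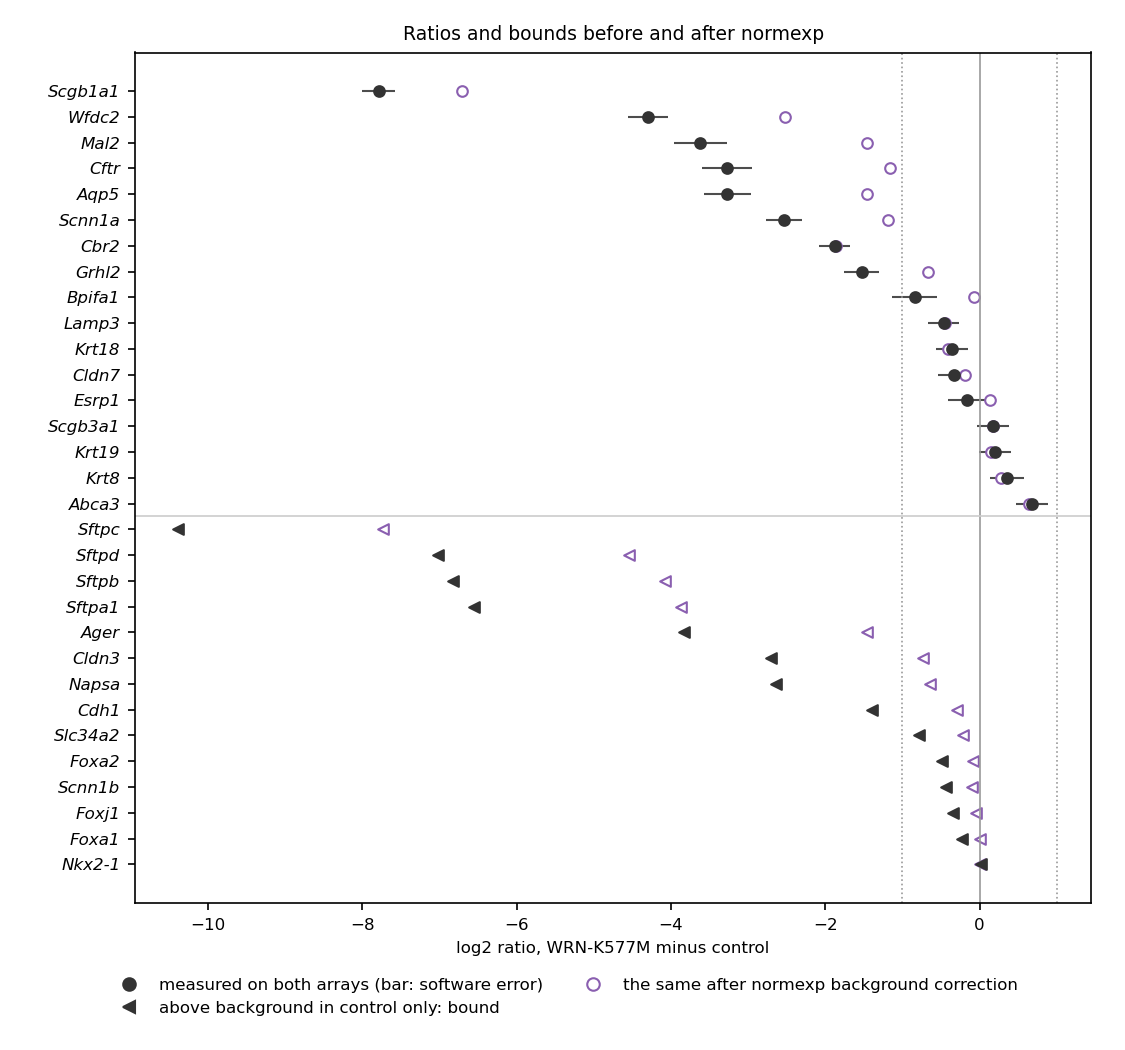
Log2 ratio (circles, 17 measured members, with the software's error as bars) and bounds (triangles, 14 members above background in the control alone), with the values after normexp in purple outline. Dotted lines mark 2-fold; the 4 surfactant protein genes stay at least 14.6-fold lower after normexp, and most dim members move towards 0.

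Probes printed many times on an array show how well a single level is known. The Scgb1a1 probe had 10 spots, whose levels ran from 5.59 to 5.86 with a median of 5.77 in the control and from -2.22 to -1.78 with a median of -2.01 in the WRN-K577M heart. The spots of the arrays did not overlap, and the log2 ratio was -7.78 ± 0.17 (SD, 10 spots). The Scgb3a1 probe ran from -1.17 to -0.81 with a median of -1.02 in the control and from -1.08 to -0.67 with a median of -0.85 in the WRN-K577M heart. Its spot ranges overlapped, and the log2 ratio was 0.18 ± 0.088 (SD, 10 spots). Before scaling, its mean processed signal was 125 on the control and 116 on the WRN-K577M array. The sign of this small ratio thus depends on how the arrays are scaled.

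The Cdh1 probe, with 9 usable spots, was above background at 9 of 9 spots in the control, from -3.21 to -2.83 with a median of -3.05, and at 0 of 9 in the WRN-K577M heart. The Nkx2-1 probe was above background at 7 of 10 spots in the control, from -4.92 to -4.12 with a median of -4.37, and at 0 of 10 in the WRN-K577M heart. Spots of 1 array share the RNA sample, so this spread covers printing and scanning and not the variation between hearts. Over 260 probes with at least 8 spots that were above background on both arrays, the median SD of the log2 ratio between spots was 0.073.

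**Figure D3:**
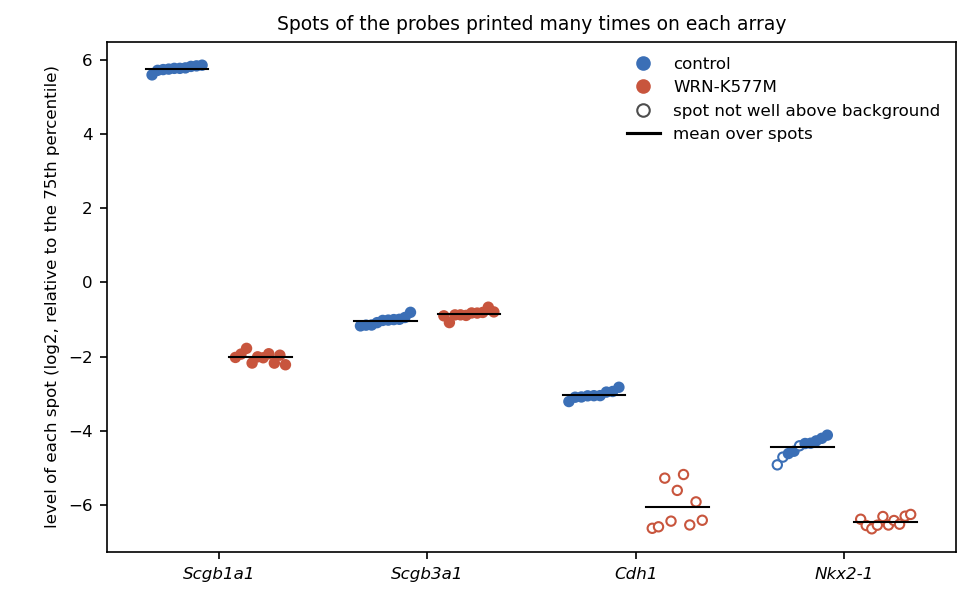
Level of each spot of the Scgb1a1, Scgb3a1, Cdh1 and Nkx2-1 probes on the control (blue) and WRN-K577M (red) array, with the mean over spots as a black line and open circles for spots not well above background. Scgb1a1 spots lie between 5.59 and 5.86 in the control and between -2.22 and -1.78 in the WRN-K577M heart, and those of Scgb3a1 overlap.

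For 9 members 2 probes could be compared. Both read the same RNA on the same arrays and members were picked on this contrast, so agreement is no independent support. Both probes of Sftpb were above background in the control and in the other heart neither was, with bounds of 113-fold and 11.9-fold lower. The probes of Sftpd gave bounds of 130-fold and 34.2-fold, and those of Cbr2 log2 ratios of -1.88 and -1.92. The second probe of Wfdc2 had a bound of 17.7-fold beside a ratio of 19.6-fold, and that of Aqp5 a bound of 3.05-fold beside 9.65-fold. These 5 genes had both probes on the lower side.

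Of the remaining members with 2 probes, Grhl2, Esrp1 and Foxa2 had 1 probe above background in the control, so their values rest on a single probe, and Cldn4 had none. For Grhl2, the second probe had levels of -6.95 and -6.52, not above background on either array.

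Other lung and epithelial genes, listed by cell type and not among the members, were read in the same way. Of 103 named genes in 7 lists, 74 passed the background flag in the control heart against 61 with WRN-K577M. The 57 measured ones had a median log2 ratio of -0.17, against 0.020 over all measured genes. Of them, 8 were at least 2-fold lower and 2 at least 2-fold higher, against 3.46% and 1.94% of all measured genes. After normexp that median was 0.013, against 0.050 over all measured genes, and 5 genes were at least 2-fold lower, against 1.4% of all measured genes. A further 17 were above background in the control alone, against 4.95% of all genes detected on either array. Of the 17, 11 had a bound of at least 2-fold, against 18.6% of all genes of that kind. With WRN-K577M alone, 4 were above background, against 1.4% of all detected genes, and 3 of them had a bound of at least 2-fold higher.

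Wide differences were found in some genes of club cells and of both cell types of the air sacs. Of 16 named type 2 cell genes outside the members, 10 were measured, with 2 at least 2-fold lower, 1 higher and 7 within 2-fold. Another 4 were above background in the control alone. Of 16 named club and goblet cell genes, 9 were measured, with 2 at least 2-fold lower and 7 within 2-fold. Of the rest, 3 were above background in the control alone and 1 with WRN-K577M alone. Cyp2f2, the cytochrome P450 of club cells, had the level 2.39 in the control heart and was at least 112-fold lower. Sec14l3, a lipid-binding protein of airway and lung epithelium, had a level of 1.08 and was at least 45.3-fold lower. Hc, complement C5, here listed for its expression in type 2 cells, was at least 32.3-fold lower, Chil1, a chitinase-like protein, 23.9-fold, Akap5, an anchor of protein kinase A, 13.0-fold and Cxcl15, a chemokine of lung epithelium, 12.3-fold. These 6 were not above background in the WRN-K577M heart. Among measured genes, Hp, haptoglobin, was 4.79-fold lower, Retnla, a resistin-like secreted protein, 3.80-fold lower and Sfta2, a surfactant-associated protein, 3.14-fold lower.

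Of 13 named type 1 cell genes outside the members, 11 were measured, with 2 at least 2-fold lower, Col4a3, a basement membrane collagen (2.40-fold), and Vegfa, a growth factor for vessels (2.06-fold). Bounds included, 4 of the 13 were at least 2-fold lower. The other 9 measured ones lay within 2-fold, from Gprc5a, 1.86-fold lower, to Clic5, an intracellular chloride channel protein, 1.73-fold higher. Hopx, a homeodomain-only protein of heart and lung, had a log2 ratio of -0.41, Pdpn, podoplanin, 0.12 and Cav1, caveolin, -0.17. Of 17 named ciliated cell genes, 9 were measured, with 1 at least 2-fold lower, Dynlrb2, a dynein light chain (2.29-fold), and 1 higher, Ccno (3.76-fold). Dnaic2 was above background with WRN-K577M alone, at least 6.78-fold higher. A further 7 were above background in neither heart, among them Dnah5 and Dnah9, heavy chains of motile cilia. Basal cell keratins were dim, with Krt15 and Krt17 above background in neither. Krt5 was above background in the control alone (bound of 1.19-fold lower) and Krt14 with WRN-K577M alone (at least 3.85-fold higher). Of 27 general epithelial genes, 14 were measured and 1, Cgn, the junction protein cingulin, was at least 2-fold lower (2.15-fold). Another 7 were above background in the control alone, among them Prss8, a channel-activating protease (bound of 2.46-fold lower), and Tspan8, a tetraspanin (2.48-fold).

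**Figure D4:**
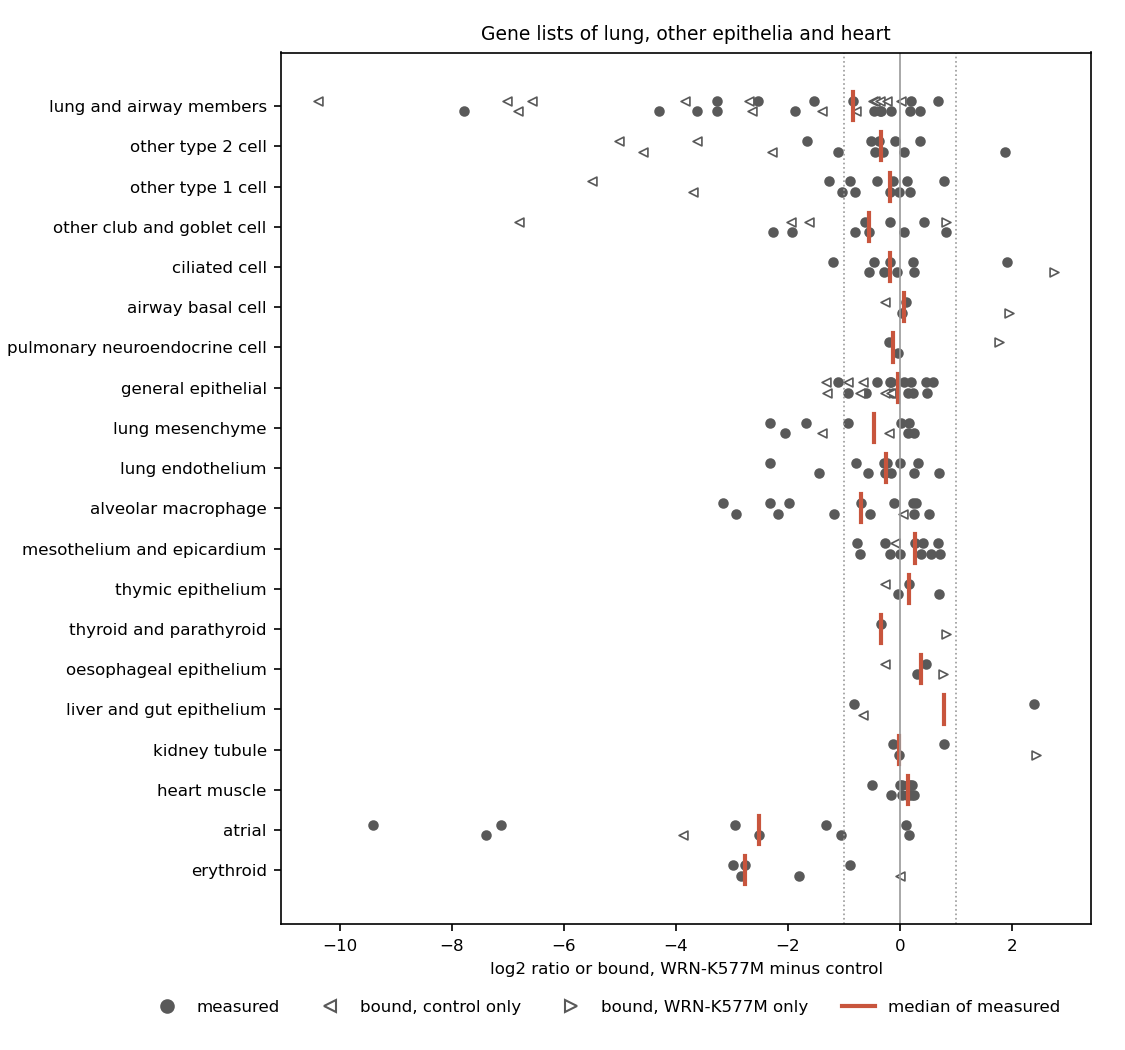
Log2 ratios (filled circles) and bounds (open triangles pointing to the side of the bound) of the lung and airway members and of the other gene lists, with the median of the measured genes of each list as an orange bar and dotted lines at 2-fold. The members reach a bound of at least 1336-fold lower, which is 212-fold after normexp. Atrial and erythroid genes are lower as well, and heart muscle genes lie near 0.

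Cells that accompany epithelium in lung were examined too. Of 16 alveolar macrophage genes, 13 were measured and 6 were at least 2-fold lower, led by Cidec, a lipid droplet protein also of fat (8.95-fold), Chil3, a chitinase-like protein (7.56-fold), and Ear2, an eosinophil-type ribonuclease (4.96-fold). Over all measured genes that share was 3.46%. After normexp 3 of the 13 were at least 2-fold lower, against 1.4% of all measured genes. The summed signal of the 13, as multiples of the 75th percentile, came to 160 in the control heart against 214 with WRN-K577M, most of it from Fabp4, which endothelium and fat also make. Siglecf was above background in the control alone and Atp6v0d2 and Il1rn in neither.

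Of 12 named lung mesenchyme genes, 8 were measured and 3 were at least 2-fold lower: Foxf1, a forkhead factor of lung mesenchyme and endothelium (5.01-fold), Mfap4, a microfibril protein (4.11-fold), and Itga8, an integrin (3.19-fold). Tbx4, a T-box factor of lung and limb, was above background in the control alone, at least 2.62-fold lower, and Tbx5, which heart expresses as well, had a log2 ratio of 0.17. The 12 lung endothelium genes were all measured, with 2 at least 2-fold lower, Foxf1 and Prx, periaxin (2.72-fold). Beside the counts of both lists, 3.46% of all measured genes were at least 2-fold lower. Ptprb, an endothelial phosphatase, had a log2 ratio of 0.011.

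Atrial and erythroid genes were lower in the WRN-K577M heart as well. Sln, Myl7 and Myl4 of the atrial muscle were 678-fold, 168-fold and 139-fold lower. Of 9 measured atrial markers, 7 were at least 2-fold lower, against 3.46% of all measured genes. After normexp 5 of the 9 were, against 1.4%. Nr2f2 and Tbx5, the 2 within 2-fold, had log2 ratios of 0.12 and 0.17. The summed signal of the 9 was 663 in the control heart against 165 with WRN-K577M. Bmp10, a growth factor of atrial muscle, was above background in neither. Of 5 measured erythroid genes, 4 were at least 2-fold lower, also after normexp, against 3.46% and 1.4% of all measured genes. The summed signal of the 5 was 1589 in the control heart and 610 with WRN-K577M. The part of atrial tissue, blood or lung tissue in the members' values was not tested.

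Epithelia of other organs were looked for with 5 lists, of thymus, thyroid and parathyroid, oesophagus, liver and gut, and kidney. Of 38 named genes, 22 were above background in neither heart, and 13 were above it in the control, against 14 with WRN-K577M. Of the 11 measured ones, 0 were at least 2-fold lower and 1, Ttr, at least 2-fold higher, against 3.46% and 1.94% of all measured genes. Foxn1, the factor of thymic epithelium, Pth, parathyroid hormone, Krt4 of oesophagus, Alb, albumin, and Umod of kidney were above background in neither heart. The thyroid gene Tg, thyroglobulin, was measured, with levels of -1.41 (control) and -1.75 (WRN-K577M). From the thymus list Ccl25, Tbata and Ctsl were measured, and from oesophagus Lor and Sbsn. Those from liver and gut were Ttr and Serpina1a, and from kidney Aqp2, Slc34a1 and Cubn.

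Genes next to the members on the chromosomes were not used to choose them. Taking the nearest protein-coding gene on each side in the RefSeq order, members passed over, 66 distinct neighbours were named on the array and 44 were measured. Their median log2 ratio was 0.045, with 2 at least 2-fold lower and 1 at least 2-fold higher, against 3.46% and 1.94% of all measured genes. Lgi3, next to Sftpc, was 4.04-fold lower and Bmp1, on the other side of Sftpc, had a log2 ratio of -0.53. The neighbours of Scgb1a1, Ahnak and Asrgl1, had log2 ratios of 0.17 and 0.48. Atoh8, next to Sftpb, had a log2 ratio of 1.12, Usp39, on its other side, one of 0.095, and Ncald, next to Grhl2, was 2.28-fold lower.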

How the data were processed

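Spot intensity was read by the authors with Feature Extraction 11.5.1.1 of Agilent, according to the notes of the submitters and per the file headers. Per the file headers, this signal had its background subtracted and spatial trend removed, with no scaling across arrays. The deposited series matrix is an intensity too: within a column, processed signals were multiplied by 1 number, 4.12 (control) or 4.86 (WRN-K577M), with column medians of 79.5 and 79.0. It is linear and not centred by gene, and the origin of these numbers is not known here.

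Control spots were left out, as were 257 spots that the software marked as outliers on either array. Saturation flags were set on 0 spots. For each probe, the log2 processed signal less the 75th percentile of its array was averaged over spots, and a probe counted as above background when most of its spots were. Probes were named through unversioned RefSeq accessions in a GRCm38.p6 table, which covered 28330 probes and left 27350 unnamed here. The array design is annotated on mm9, per the file headers, so coordinates are given only for the promoter windows of the GRCm38.p6 table, and the gene order came from the same assembly. Probe sequences were not used here.

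The members and all gene lists were chosen with earlier results of these data known. Every member is named, with up to 3 genes of the widest ratio or bound and defining genes from the other lists. All measured genes of the lists of other organs are named too. Further genes named as near equal, or as neighbours, were chosen after their values were seen. With 1 array per group no test was made, and this number of arrays is what limits precision. The alternatives were normexp (offset 50) on the median spot signal, quantile normalization, cyclic loess, other scalings and filters, averaging the probes of a gene, values of the deposited matrix, and 1.5-fold or 3-fold as the threshold. The counting of measured genes was tested on simulated data. Both simulated arrays had the same background flags, so bounds and counts of genes above background on 1 array were not tested. Software was limma 3.58.1 in R 4.3.3, and pandas 2.3.3, numpy 2.4.6 and matplotlib 3.10.9 in Python 3.11.15.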

Additional observations from a re-analysis of the deposited data

How the results depend on the processing

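No paired analysis was possible because each group has 1 sample. The count of measured members at least 2-fold lower was 7 to 9 under normexp, quantile normalization, cyclic loess, both other scalings, the mean of probes, the deposited matrix, the every-spot rule and thresholds of 1.5-fold and 3-fold, but 2 with the stricter filter on dim probes, which left 9 measured, and 23 with no filter, which gives all 39 a value. Over all genes the share was 2.55% with the stricter filter and 5.05% with no filter. It was 1.4% to 3.88% under the others, and is not available for the thresholds of 1.5-fold and 3-fold. The median of measured members, -0.84, was -0.45 after normexp, -0.93 with cyclic loess, -2.00 with no filter and -0.33 with the stricter filter. At 1.5-fold, 1 member was higher, Abca3. With bounds included, 16 members were lower, and 12 to 18 under the alternatives, for which no share over all genes is available. Running them on that count was chosen after seeing the data. So was requiring every spot above background, which left 13 rather than 14 members above background in the control alone. With no filter, bounds and the count above background in the control alone have no value, and the median of all genes moves by 0.10. Of 162 single ratios under the alternatives, 147 moved by less than the typical spot SD of 0.073, and no member at least 2-fold lower changed sign. Many of these ratios could not move further, so that count is no measure of robustness. The filters on dim probes keep the same probe values, and the other scalings shift every ratio by 1 small constant. Of 118 single bounds, 41 moved by more than that SD. Of 14003 measured genes, 484 lower and 271 higher became 196 and 115 after normexp. They were 304 and 191 of 11903 genes with the stricter filter and 1080 and 1240 of 21368 with no filter. Signal over background limits the transcription factors and every bound.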

Other observations

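A few genes of the other lung and epithelial lists lay on the opposite side. Etv5, an ETS factor of type 2 cells that other tissues also express, had levels of 2.10 (control) and 3.97 (WRN-K577M), 3.66-fold higher. Ccno, a cyclin-like protein of multiciliated cells, had levels of -3.37 and -1.45, 3.76-fold higher. Dnaic2, a dynein intermediate chain of motile cilia, was above background in the WRN-K577M heart alone, at least 6.78-fold higher, and its partner Dnaic1 had levels of -0.025 and -0.083. Krt14, a basal cell keratin, and Chgb, a granin of neuroendocrine cells, were also above background there alone, at least 3.85-fold and 3.39-fold higher.

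In the lists of other organs, Ttr, transthyretin, had levels of -3.92 and -1.52, 5.28-fold higher in the WRN-K577M heart, and Kap, the kidney androgen-regulated protein, was above background there alone, at least 5.38-fold higher. Alb and Apoa1, which liver makes along with transthyretin, were above background in neither heart. From the same list, Serpina1a was measured, with levels of -2.00 and -2.83, 1.77-fold lower. Fabp1 was above background in the control alone, with a bound of 1.58-fold lower. The source of the Ttr signal was not tested.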
